A study of Mus musculus with 12 samples.

Results

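The genes described here are the enzymes of glycolysis, the carriers of glucose and lactate, and the regulators and targets of the hypoxia response. They were taken from a list of 37 mouse symbols, and all 37 were found among the 49315 genes counted. Poly(A) RNA was sequenced from 12 cultures, given in the labels as primary Müller glia, which span the neural retina and sustain its neurons. The cells came from wild-type (WT) mouse retina and were kept in transwell plates beside primary retinal pigment epithelium (RPE) cells. The RPE cells of the treated groups had received 100 nM PNU-282987 (PNU), which activates the α7 type of nicotinic receptor, with DMSO, and those of the control groups had received DMSO alone. The 4 groups, of 3 libraries each, were PNU at 6 h, PNU at 2 h, DMSO at 6 h and DMSO at 2 h of co-culture. The DMSO concentration is given as 0.1% in one protocol and as 1% in another, and both arms went through 4 passages. The design asks whether the glia facing PNU-treated RPE cells differ in expression from those facing DMSO-treated RPE cells at the same time. The replicates are titled biological, but no animal, culture or day is named, so each p-value reflects the spread among these libraries, which may be technical.

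Glycolysis splits glucose to pyruvate, and lactate dehydrogenase turns pyruvate to lactate, which leaves the cell through monocarboxylate carriers. When oxygen is short, the prolyl hydroxylases that mark the hypoxia-inducible factors (HIFs) for breakdown slow down, and the stabilised factors, paired with Arnt, raise the transcription of most glycolytic enzymes, of glucose carriers and of genes of mitophagy and collagen processing. Growth factor signalling and Myc act on many of the same glycolytic genes. In the retina, Müller glia are known for their glycolytic metabolism and for exchanging lactate with neurons.

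HIFs bind a short core, ACGTG or GCGTG, so the promoters of the genes were read for it on both strands. RefSeq promoter windows of 300 bases, from 250 before to 50 after an annotated start on GRCm38.p6, were found for 33 of the 37 genes, 48 windows in all; Epas1, Slc2a3, Bnip3l and Ndrg1 had no entry. The core was present in 39 of the 48 windows (81.2%), against 43.8% of all 32851 windows of the table, and in at least 1 window of 30 of the 33 genes (90.9%), against 46.7% of all 27025 genes. ACGTG alone was present in 60.4% of the windows, against 19.6% of all. The palindrome CACGTG, which is also the site of Myc and related factors and counts here as a match on each strand, was present in 12.5%, against 7.15%. The windows were also richer in G and C, with a median of 64% against 52.7% for all windows, and the part of base composition in these shares was not tested. Gpi1, Tpi1 and Eno2 had no match in their windows, which says only that these letters are absent there. A match is a description of the sequence and not evidence of binding. The genes were listed as glycolytic genes and HIF targets, so these shares are not independent evidence of control by HIFs.

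The promoters of 6 genes are shown in lower case, 5′ to 3′ on the gene's strand, with every match in capitals (CACGT and CACGC are the core read on the other strand). The first 3 belong to the genes that were highest in PNU at 2 h and fell by 6 h, Bnip3 and Slc16a3 rose over the same interval, and Pgk1 had the smallest p for PNU against DMSO at 6 h.
Hk2, chr6:82774405-82774704, minus strand: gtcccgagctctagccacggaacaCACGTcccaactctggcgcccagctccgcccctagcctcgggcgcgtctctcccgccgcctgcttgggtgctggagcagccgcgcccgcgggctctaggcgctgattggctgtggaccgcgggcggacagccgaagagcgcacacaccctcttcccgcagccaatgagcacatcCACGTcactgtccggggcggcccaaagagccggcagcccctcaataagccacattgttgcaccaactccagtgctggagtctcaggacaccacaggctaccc
Slc2a1, chr4:119108495-119108794, plus strand: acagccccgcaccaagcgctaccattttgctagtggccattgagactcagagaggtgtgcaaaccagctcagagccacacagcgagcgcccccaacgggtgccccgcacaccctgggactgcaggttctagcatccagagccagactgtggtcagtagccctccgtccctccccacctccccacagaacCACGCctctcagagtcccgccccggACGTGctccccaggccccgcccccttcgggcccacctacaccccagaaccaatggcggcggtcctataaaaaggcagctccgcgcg
Pfkfb4, chr9:108991652-108991951, plus strand: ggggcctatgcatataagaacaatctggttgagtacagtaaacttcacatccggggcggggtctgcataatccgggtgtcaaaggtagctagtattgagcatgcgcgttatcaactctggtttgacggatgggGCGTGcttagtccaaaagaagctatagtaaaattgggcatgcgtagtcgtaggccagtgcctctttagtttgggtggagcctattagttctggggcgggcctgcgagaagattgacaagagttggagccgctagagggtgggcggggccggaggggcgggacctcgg
Bnip3, chr7:138909457-138909756, minus strand: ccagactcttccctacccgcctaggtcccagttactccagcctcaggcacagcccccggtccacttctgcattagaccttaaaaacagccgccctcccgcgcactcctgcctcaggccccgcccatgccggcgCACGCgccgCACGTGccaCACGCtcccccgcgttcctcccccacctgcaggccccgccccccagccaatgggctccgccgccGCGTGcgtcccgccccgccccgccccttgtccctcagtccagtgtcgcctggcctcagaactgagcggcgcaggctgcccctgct
Slc16a3, chr11:120948817-120949116, plus strand: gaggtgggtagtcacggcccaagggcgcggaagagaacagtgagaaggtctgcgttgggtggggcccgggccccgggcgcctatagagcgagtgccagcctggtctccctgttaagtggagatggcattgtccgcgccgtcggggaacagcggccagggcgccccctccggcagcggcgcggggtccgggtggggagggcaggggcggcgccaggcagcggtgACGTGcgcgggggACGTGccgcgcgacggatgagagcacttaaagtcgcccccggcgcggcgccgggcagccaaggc
Pgk1, chrX:106186850-106187149, plus strand: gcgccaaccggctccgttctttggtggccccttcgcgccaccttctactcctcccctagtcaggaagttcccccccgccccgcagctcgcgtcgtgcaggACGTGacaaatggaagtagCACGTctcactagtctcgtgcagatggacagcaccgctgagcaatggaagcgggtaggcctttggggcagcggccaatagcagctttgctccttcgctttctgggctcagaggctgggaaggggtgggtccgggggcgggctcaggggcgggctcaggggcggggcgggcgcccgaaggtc
Hk2 carried 2 matches, Slc2a1 2 and Pfkfb4 1, while Bnip3 carried 5, Slc16a3 2 and Pgk1 2, so the genes that fell and those that rose both held the core. The window with the most matches was that of Ldha (chr7:46845554-46845853), with 7.

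**Figure D1:**
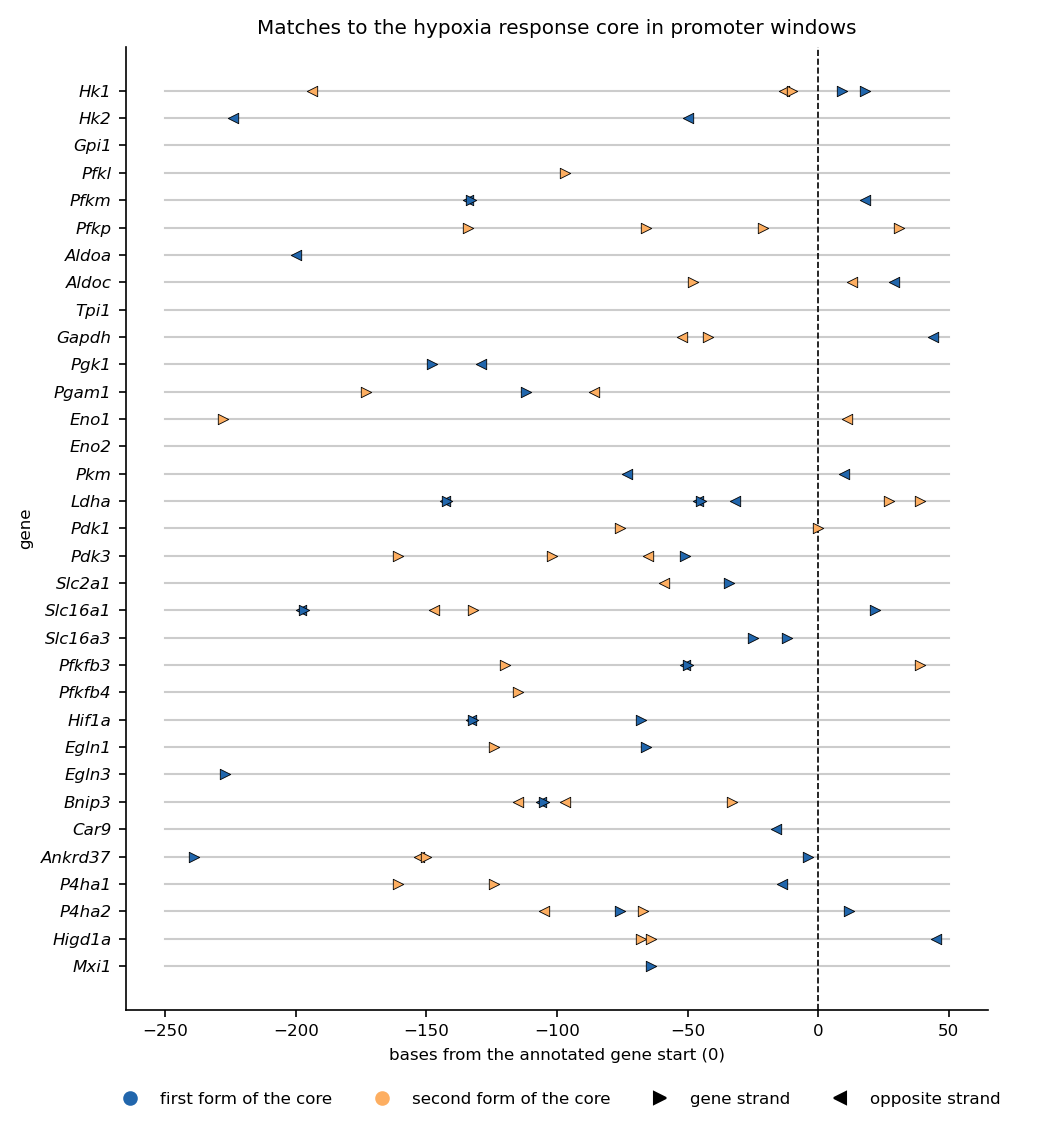
Position of each match to the hypoxia response core in the promoter windows of 33 genes, in bases from the annotated start (dashed line), with ACGTG (first form) in blue and GCGTG (second form) in orange, and the arrowhead giving the strand. For a gene with several windows, the one with the most matches is drawn; 30 of the 33 genes carry at least 1 match, and both matches of Hk2 lie before the start.

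Each library held between 44332013 and 66518799 counts. Levels are given in CPM, a gene's count scaled to the library's total, and 3 counts, taken as the floor of detection, correspond to 0.0451 to 0.0677 CPM; this covers counting error only. The libraries were not equally independent. Near copies of each other were replicates 2 and 3 of PNU at 2 h, likewise those of PNU at 6 h, and the 3 libraries of DMSO at 6 h, with a pairwise coefficient of variation of 0.0163 to 0.0228, against 0.148 to 0.384 in the other pairs of a group. They still differed beyond sampling noise, with a chi-square per degree of freedom of 2.03 to 3.34, and were kept as separate libraries. Of the 12 libraries, 2 stood apart: for 30 of the 37 genes, DMSO at 2 h replicate 3 was nearer to the mean of the PNU libraries at 2 h than to that of the other DMSO libraries at 2 h, and for 17 of the 37 PNU at 6 h replicate 1 was nearer to the DMSO libraries at 6 h. Over all genes tested, DMSO at 2 h replicate 3 had coefficients of variation of 0.0986 to 0.179 with the PNU libraries at 2 h. With its group mates they were 0.351 and 0.384. For PNU at 6 h replicate 1 they were 0.152 to 0.157 with the DMSO libraries at 6 h, and 0.277 and 0.279 with its group mates. The Y-linked gene Ddx3y stood at 7.43 and 6.74 CPM in PNU at 6 h replicates 2 and 3 and at no more than 0.141 CPM in the other libraries at 6 h. At 2 h it reached 5.00 CPM in DMSO replicate 3 and 2.23 CPM in PNU replicate 1, against at most 0.0870 CPM in the other libraries. Its difference at 6 h thus runs partly along the treatment, and the part of any difference between cultures in the results was not tested. The calls made without these libraries are given beside those made with all 12. Near copies count as separate libraries in both, so the p-values may be too small.

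The defining markers of Müller glia were in part low or near absent. Vim, a filament protein that Müller glia share with mesenchymal cells, had 6063 to 7451 CPM and Glul, the glutamine synthetase of Müller glia, 61.5 to 94.4 CPM, but Rlbp1, their retinaldehyde-binding protein, reached at most 0.302 CPM and Slc1a3, their glutamate carrier, at most 3.72 CPM. Of the other Müller glia markers listed, Sox9 had 63.4 to 292 CPM, Dkk3 9.54 to 67.5, Clu 5.53 to 42.8 and Apoe 5.35 to 14.2 CPM. Aqp4 and Kcnj10 reached at most 0.218 and 0.110 CPM. Col1a1, a chain of type I collagen, had 3509 to 4895 CPM and Acta2, smooth muscle actin, 1502 to 2405 CPM. Rpe65, the visual-cycle enzyme of RPE cells, did not exceed 0.0442 CPM. These are bulk cultures, in which fewer cells of a type and less RNA per cell cannot be told apart.

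Per kilobase of the gene length given with the counts, the most abundant of the genes was Gapdh, the glycolytic dehydrogenase, with a median over the 12 libraries of 481 CPM per kb (range 356 to 521). That length may differ from the length of the transcripts present, so comparisons between genes are approximate. Pkm, pyruvate kinase, followed at a median of 409 CPM per kb, then the aldolase Aldoa at 265, the lactate dehydrogenase subunit Ldha at 253 and the kinase Pgk1 at 189.9 CPM per kb. The ranges of Gapdh and Pkm overlapped, as did those of Aldoa and Ldha. Of the paired isoenzymes, Hk1 stood at a median of 24.0 CPM per kb and Hk2 at 11.8, Eno1 at 79.8 and Eno2 at 8.15, and Aldoc, the brain aldolase, was the lowest of all at 0.0862 CPM per kb. Slc2a1, the main glucose carrier of glia and endothelium, had a median of 12.8 CPM per kb, and Slc2a3, the neuronal one, 0.101. Hif1a stood at 16.2 CPM per kb and Epas1, the other oxygen-regulated HIF subunit, at 5.37. Among the targets, P4ha1, a catalytic subunit of collagen prolyl hydroxylase, was the most abundant at 96.7 CPM per kb. All 37 genes passed the filter on low counts, so all were tested.

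**Figure D2:**
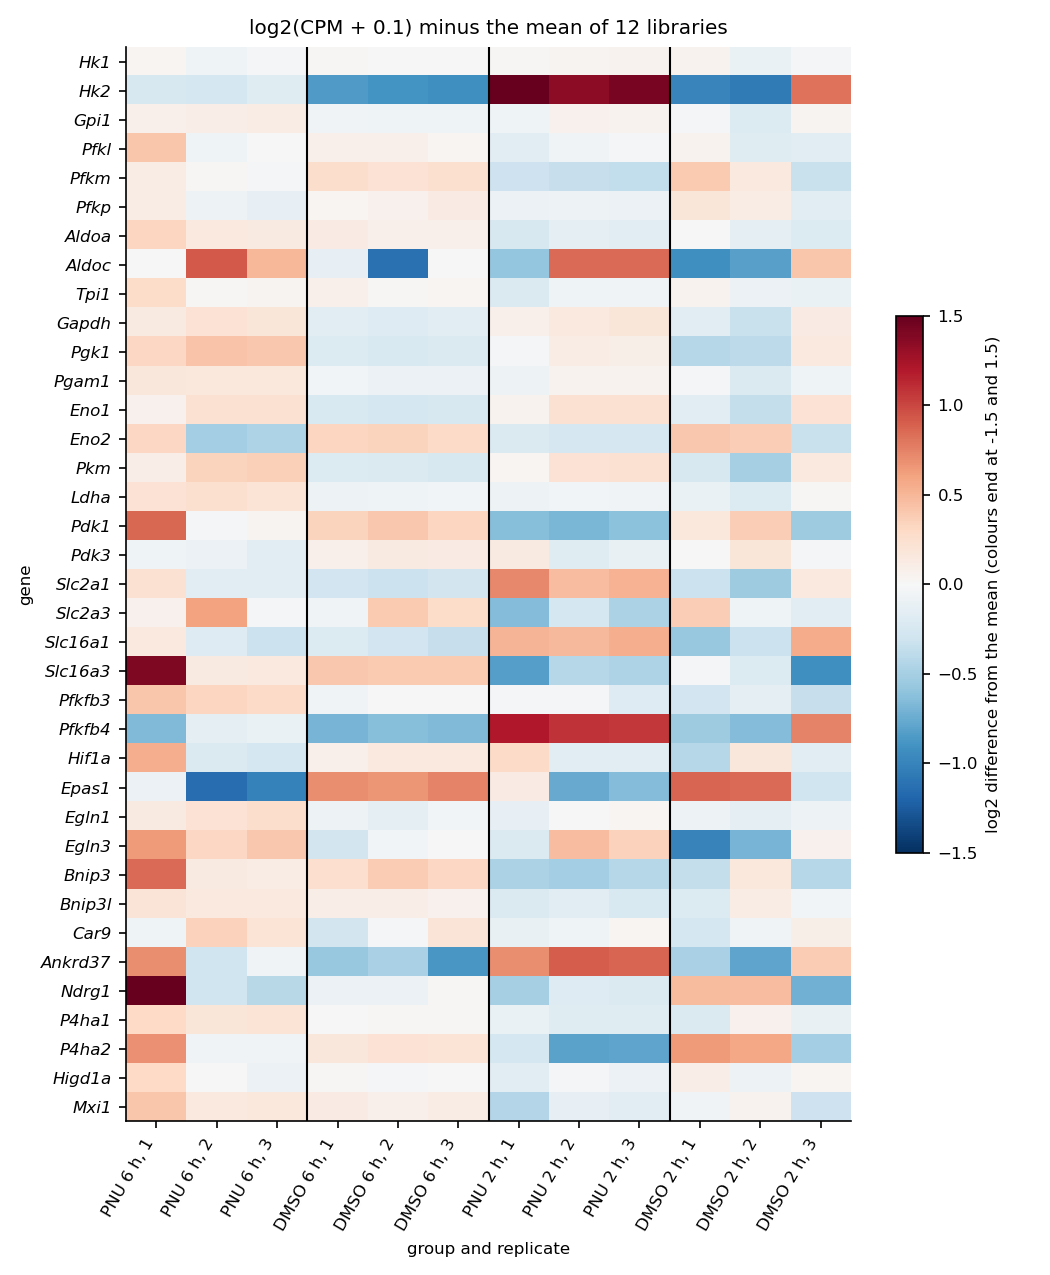
Each cell shows a gene's log2(CPM + 0.1) in 1 library minus that gene's mean over the 12 libraries; rows are the 37 genes by role and columns the libraries by group. Hk2 and Pfkfb4 are high in the 3 PNU libraries at 2 h and in DMSO at 2 h replicate 3, and PNU at 6 h replicate 1 is the highest library of all for 16 genes.

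At 2 h, cultures facing PNU-treated RPE cells had the highest levels of the inducible hexokinase, the glucose carrier and a regulator of phosphofructokinase, with groups that did not overlap. Hk2, the inducible hexokinase (ENSMUSG00000000628, GRCm38 chromosome 6, 82725025 to 82774454), stood at 297, 212 and 225 CPM with PNU, against 42.2, 40.2 and 148 CPM with DMSO. Slc2a1 (ENSMUSG00000028645, chromosome 4, 119108711 to 119137983), which carries glucose into the cell, stood at 82.7, 69.2 and 72.1 CPM with PNU and 40.2, 34.7 and 55.5 CPM with DMSO. Pfkfb4 (ENSMUSG00000025648, chromosome 9, 108991778 to 109032228), which makes and removes the sugar phosphate that activates phosphofructokinase, stood at 143, 132 and 130.2 CPM with PNU and 43.0, 39.5 and 105 CPM with DMSO. In all 3 genes the lowest PNU library was above the highest DMSO library, and that DMSO library was replicate 3, well above its 2 group mates. The log2 fold changes were 1.71 ± 0.42 for Hk2, 0.81 ± 0.17 for Slc2a1 and 1.15 ± 0.31 for Pfkfb4 (edgeR, ± SE), with adjusted p-values of 0.0652, 0.0583 and 0.0706, so none passed the threshold of 0.05. Without DMSO replicate 3 all 3 passed, beside 43.8% of all genes tested. The log2 fold changes were then 2.61 for Hk2 (adjusted p = 4.35e-07), 1.03 for Slc2a1 (adjusted p = 0.000184) and 1.75 for Pfkfb4 (adjusted p = 9.26e-06). PNU replicates 2 and 3, near copies of each other, still counted there as separate libraries.

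With all 12 libraries none of the 37 genes passed at 2 h, where 0.291% of all 17164 genes tested did. At an unadjusted p under 0.05, 15 of the 37 differed, 11 higher and 4 lower, beside 12.3% of all genes higher and 17.7% lower. The groups did not overlap for 4 genes higher with PNU (Hk2, Slc2a1, Pfkfb4 and Ankrd37, beside 9.06% of all genes) and for 2 lower (Pdk1 and Slc2a3, beside 13.6%). Over the 37 genes the median log2 fold change was 0.06, against -0.01 over all genes tested, and 20 of 37 were positive, beside 48.3% of all genes. Without DMSO replicate 3, 16 of the 37 passed, 11 higher and 5 lower, but so did 43.8% of all genes tested. DESeq2, with all libraries, called 6, namely Hk2, Slc2a1, Pfkfb4, Ankrd37 and Egln3 higher and P4ha2 lower, beside 14.6% of all genes.

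Of the 9 enzymes from hexokinase to aldolase and triose phosphate isomerase, 5 had positive log2 fold changes at 2 h, with a median of 0.04, and none passed. Hk1, the constitutive hexokinase, stood at 205, 209 and 211 CPM with PNU and 210.5, 190.4 and 200.2 CPM with DMSO, and the 2 groups overlapped. Pfkm, the muscle form of phosphofructokinase, stood at 62.8, 61.3 and 60.3 CPM with PNU and 102, 86.7 and 61.9 CPM with DMSO, with DMSO replicate 3 beside the PNU libraries. Its log2 fold change was -0.41 ± 0.15 (adjusted p = 0.0991), and without DMSO replicate 3 it was -0.59 and passed (adjusted p = 0.000413). Aldoc, under 1 CPM in every library, was called higher in that setting. Pfkm overlaps Senp1 on the other strand, and the strand setting of the counting is not given. The liver form Pfkl stood at 133, 144 and 147 CPM with PNU and 155, 132 and 134 CPM with DMSO, and Gpi1, the isomerase after hexokinase, at 456, 499 and 496 CPM with PNU and 469.7, 412 and 492 CPM with DMSO. Both overlapped, and so did the platelet form Pfkp, Aldoa, Aldoc and Tpi1, the triose phosphate isomerase. Gpi1, Pfkp, Tpi1, Gapdh, Car9 and Ankrd37 also overlap expressed genes, so the same limit holds for their counts. Pkm overlaps Gm49759, which reached 34.5 CPM, over 3887 bases on the same strand, where a strand setting does not separate them.

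From Gapdh to Ldha, the lower pathway, 6 of 7 log2 fold changes at 2 h were positive and none passed, with a median of 0.28. The exception was Eno2, the neuronal enolase, at 31.7, 30.8 and 30.8 CPM with PNU and 48.7, 47.7 and 29.1 CPM with DMSO. Pkm stood at 1999, 2279 and 2286 CPM with PNU and 1652, 1384 and 2167 CPM with DMSO. Pgk1 stood at 410.4, 449 and 442 CPM with PNU and 308, 317 and 459 CPM with DMSO. In Pkm and Pgk1 the first 2 DMSO libraries lay below every PNU library and the third lay among or above them. Without DMSO replicate 3, 5 of these 7 genes passed, beside 43.8% of all genes tested, and Ldha and Pgam1 did not. The log2 fold changes of the 5 were 0.56 for Pkm (adjusted p = 0.002), 0.51 for Pgk1 (adjusted p = 0.000129), 0.47 for Eno1 (adjusted p = 0.00192), 0.41 for Gapdh (adjusted p = 0.00184) and -0.60 for Eno2 (adjusted p = 0.032). Gapdh, Pgk1, Pkm and Ldha have processed pseudogenes, and how reads that fit several places were counted is not given, so their exact levels are uncertain.

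The lactate carriers and Pdk1 showed the same split of the DMSO libraries at 2 h. Slc16a1, a carrier of lactate and pyruvate, stood at 28.0, 27.4 and 28.5 CPM with PNU and 13.2, 15.6 and 28.9 CPM with DMSO, where replicate 3 was the highest library of both groups. Slc16a3, the carrier typical of lactate export, stood at 4.64, 6.14 and 6.03 CPM with PNU and 8.16, 7.18 and 4.36 CPM with DMSO. Pdk1, a kinase that inhibits the pyruvate dehydrogenase complex, stood at 12.5, 12.1 and 12.7 CPM with PNU and 21.8, 25.2 and 13.5 CPM with DMSO, without overlap but with DMSO replicate 3 close to the PNU libraries. Slc2a3, at 0.442, 0.609 and 0.511 CPM with PNU and 0.997, 0.714 and 0.657 CPM with DMSO, was low in both and did not overlap. Pdk3, another kinase of the same complex, stood at 25.3, 20.3 and 21.3 CPM with PNU and 23.0, 26.1 and 22.8 CPM with DMSO, where replicate 3 lay beside replicate 1. None of these 5 passed with all libraries. Without DMSO replicate 3, Slc16a1 and Pdk1 passed, beside 43.8% of all genes tested. Their log2 fold changes were 1.00 for Slc16a1 (adjusted p = 0.000122) and -0.88 for Pdk1 (adjusted p = 0.00751).

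Among the regulators and targets of the hypoxia response at 2 h, none passed, 5 of 13 log2 fold changes were positive, and the targets other than glycolytic genes had a median of -0.11. Ankrd37, an ankyrin-repeat protein induced by hypoxia, stood at 3.38, 3.94 and 3.85 CPM with PNU and 1.44, 1.14 and 2.71 CPM with DMSO, without overlap (log2 fold change 1.11 ± 0.34, adjusted p = 0.0792). P4ha2, the other catalytic subunit of collagen prolyl hydroxylase, stood at 121, 82.8 and 83.4 CPM with PNU and 225, 217 and 101 CPM with DMSO, where replicate 3 lay between the PNU libraries (log2 fold change -0.88 ± 0.30, adjusted p = 0.0926). Hif1a stood at 119.6, 88.0 and 87.8 CPM with PNU and 72.7, 110.2 and 87.4 CPM with DMSO, and Epas1 at 30.7, 16.6 and 17.8 CPM with PNU and 51.4, 50.8 and 22.8 CPM with DMSO. Both genes overlapped between the groups. Egln3, a prolyl hydroxylase that is itself a HIF target, stood at 3.05, 4.94 and 4.56 CPM with PNU and 1.72, 2.16 and 3.74 CPM with DMSO, again with overlap only through DMSO replicate 3. Without that library 4 of the 13 passed, beside 43.8% of all genes tested. Their log2 fold changes were 1.56 for Ankrd37 (adjusted p = 0.00149), 1.15 for Egln3 (adjusted p = 0.00126), -1.17 for P4ha2 (adjusted p = 0.00302) and -1.20 for Epas1 (adjusted p = 0.019).

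**Figure D3:**
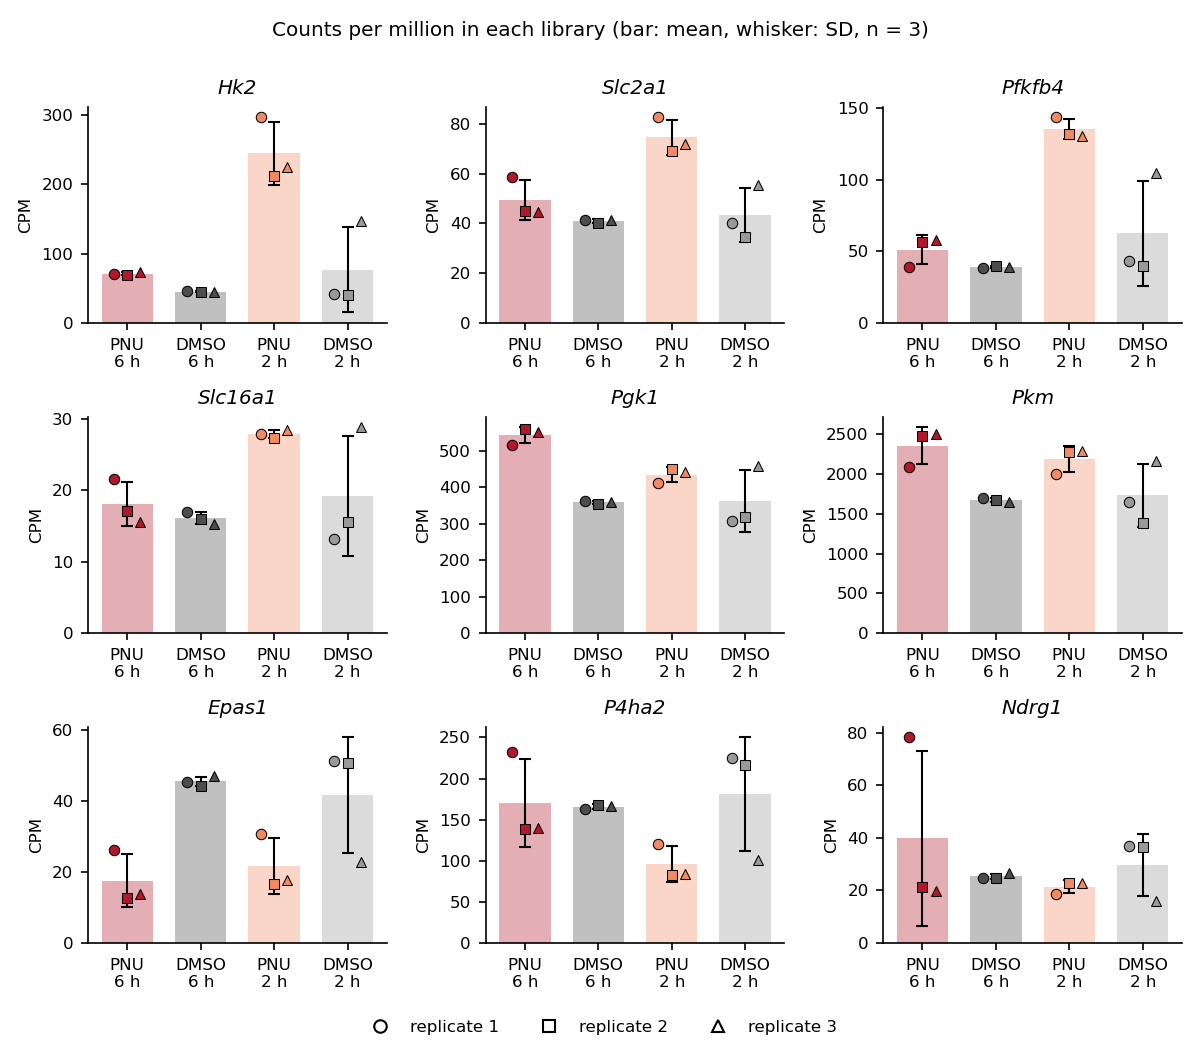
CPM of 9 of the genes in each library, with the bar at the mean and the whisker 1 SD (n = 3), PNU in red and orange and DMSO in grey. Hk2, Slc2a1, Pfkfb4 and Slc16a1 have their highest group mean in PNU at 2 h, with DMSO at 2 h replicate 3 (triangle) apart from its group mates; Epas1 is lower with PNU at 6 h; Ndrg1 is set apart by PNU at 6 h replicate 1.

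Markers of other states and cells also differed among the libraries at 2 h, and their part in these results was not tested. The 6 proliferation genes of the list used summed to 738 to 784 CPM with PNU and to 375 to 849 CPM with DMSO; Top2a, a topoisomerase of dividing cells, stood at 189, 195 and 195 CPM with PNU and 76.1, 107 and 217 CPM with DMSO, replicate 3 being the highest. None of the 6 passed. The 8 markers of pericytes and smooth muscle summed to 4275 to 4677 CPM with PNU and to 3246 to 4135 CPM with DMSO, and 1 of them, Cspg4, a pericyte proteoglycan, passed (log2 fold change 0.86 ± 0.15, adjusted p = 0.0385).

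At 6 h, 6 of the 7 enzymes of the lower pathway were higher in every PNU library than in any DMSO library, though none passed with edgeR. Pgk1, which yields the first ATP of the pathway (ENSMUSG00000062070, chromosome X, 106187100 to 106203699), stood at 517, 558 and 551 CPM with PNU, against 362, 355 and 359 CPM with DMSO. Gapdh stood at 2042, 2153 and 2114 CPM with PNU and 1646, 1628 and 1649 CPM with DMSO. Ldha, which makes lactate, stood at 1005, 1025 and 994 CPM with PNU and 823, 825 and 839 CPM with DMSO. In these 3 genes, and in Pgam1, Eno1 and Pkm, every PNU library was above every DMSO library, PNU replicate 1 included. The log2 fold changes were 0.61 ± 0.13 for Pgk1 (adjusted p = 0.0511), 0.37 ± 0.11 for Gapdh (adjusted p = 0.126) and 0.30 ± 0.08 for Ldha (adjusted p = 0.0931), above the threshold of 0.05. Pkm stood at 2092, 2475 and 2507 CPM with PNU and 1702, 1679.6 and 1654 CPM with DMSO, and Eno1, the ubiquitous enolase, at 432, 484 and 484 CPM with PNU and 352, 345 and 350.0 CPM with DMSO. The 7 enzymes together summed to 6738 ± 326 CPM with PNU and 5095 ± 29.9 CPM with DMSO (SD, n = 3 each). Eno2 again went the other way, at 45.7, 25.9 and 26.6 CPM with PNU and 45.9, 46.3 and 44.9 CPM with DMSO, with PNU replicate 1 at the level of the DMSO libraries. The median log2 fold change of these 7 genes was 0.37, against -0.00 over all genes tested.

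None of the 37 genes passed at 6 h, beside 1.05% of all genes tested. At an unadjusted p under 0.05, 12 of the 37 differed, 11 higher (8.61% of all genes) and 1 lower (7.02%). The groups did not overlap for 17 genes higher with PNU, beside 14.1% of all genes, and for 3 lower, beside 20.8%; all 3 DMSO libraries here were near copies. In all, 30 of 37 log2 fold changes were positive, beside 49.3% of all genes, with a median of 0.18. Without PNU replicate 1, 4 passed (Egln1 and Pgk1 higher, Eno2 and Epas1 lower), beside 6% of all genes. DESeq2 with all libraries called 10, 9 of them higher (Egln1, Eno1, Gapdh, Ldha, P4ha1, Pfkfb3, Pgam1, Pgk1 and Pkm) and Epas1 lower, beside 5.38% of all genes. A fit of the 6 h libraries alone called 13, 12 higher and 1 lower, beside 10.1% of all genes.

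The genes that led at 2 h were less far apart at 6 h. Hk2 stood at 70.9, 69.6 and 73.5 CPM with PNU and 46.3, 44.9 and 44.2 CPM with DMSO, with no overlap. Slc2a1 stood at 58.8, 44.9 and 44.6 CPM with PNU and 41.3, 40.1 and 41.4 CPM with DMSO, also with no overlap. Pfkfb4 stood at 39.3, 56.2 and 58.0 CPM with PNU and 38.5, 39.9 and 39.1 CPM with DMSO, where PNU replicate 1 lay among the DMSO libraries. Pfkfb3, its relative with the stronger kinase activity, stood at 17.1, 16.1 and 15.7 CPM with PNU and 12.3, 12.8 and 12.9 CPM with DMSO, with no overlap (log2 fold change 0.38 ± 0.09, adjusted p = 0.0788).

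Among the regulators at 6 h, Epas1 (ENSMUSG00000024140, chromosome 17, 86753907 to 86833410) had the largest difference among the 6 genes of smallest p. It stood at 26.3, 12.7 and 13.9 CPM with PNU, against 45.5, 44.3 and 47.0 CPM with DMSO, and every PNU library was below every DMSO library. Its log2 fold change was -1.36 ± 0.36 (adjusted p = 0.111), and it passed without PNU replicate 1 and with DESeq2. Hif1a stood at 143, 84.6 and 81.5 CPM with PNU and 103, 109 and 109 CPM with DMSO, with PNU replicate 1 above and the other PNU libraries below the DMSO libraries. Egln1, the main prolyl hydroxylase acting on HIFs, stood at 105, 111 and 115 CPM with PNU and 90.9, 87.3 and 92.7 CPM with DMSO, with no overlap (log2 fold change 0.30 ± 0.07, adjusted p = 0.0731).

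All 9 of the remaining HIF targets had positive log2 fold changes at 6 h, with a median of 0.16, and none passed. P4ha1 stood at 488, 449 and 455 CPM with PNU and 397, 399 and 399.9 CPM with DMSO, with no overlap. For others the positive value rested on PNU replicate 1. Ndrg1, a stress-response protein, stood at 78.2, 21.4 and 19.8 CPM with PNU and 24.8, 24.8 and 26.6 CPM with DMSO, and Bnip3, a mitophagy receptor, at 33.7, 20.5 and 20.2 CPM with PNU and 22.2, 24.3 and 23.1 CPM with DMSO: in both, the other 2 PNU libraries were below every DMSO library. P4ha2, at 232, 139 and 139.9 CPM with PNU and 163, 168 and 167 CPM with DMSO, had the same split. Car9, a cell-surface carbonic anhydrase and a classic marker of hypoxia, stood at 2.88, 3.86 and 3.48 CPM with PNU and 2.48, 2.97 and 3.45 CPM with DMSO, which overlapped.

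None of the upper enzymes or lactate carriers passed at 6 h. Gpi1 stood at 504, 510.3 and 513 CPM with PNU and 461, 457 and 457 CPM with DMSO, and Aldoa at 1213, 1069.5 and 1061 CPM with PNU and 1053, 1024 and 1020.0 CPM with DMSO; neither overlapped and neither passed. Pfkm, at 84.3, 79.3 and 76.5 CPM with PNU and 94.0, 91.1 and 91.9 CPM with DMSO, and Pdk3, at 22.0, 21.7 and 20.7 CPM with PNU and 24.2, 25.3 and 25.1 CPM with DMSO, were below every DMSO library in all 3 PNU libraries. Slc16a1 stood at 21.6, 17.1 and 15.6 CPM with PNU and 17.0, 16.1 and 15.3 CPM with DMSO, and Slc16a3 at 22.2, 9.17 and 9.19 CPM with PNU and 11.1, 10.9 and 10.9 CPM with DMSO, with PNU replicate 1 the highest library in both. Higd1a, a mitochondrial protein induced by hypoxia, at 42.0, 34.0 and 32.2 CPM with PNU and 34.7, 33.5 and 34.3 CPM with DMSO, overlapped as well.

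**Figure D4:**
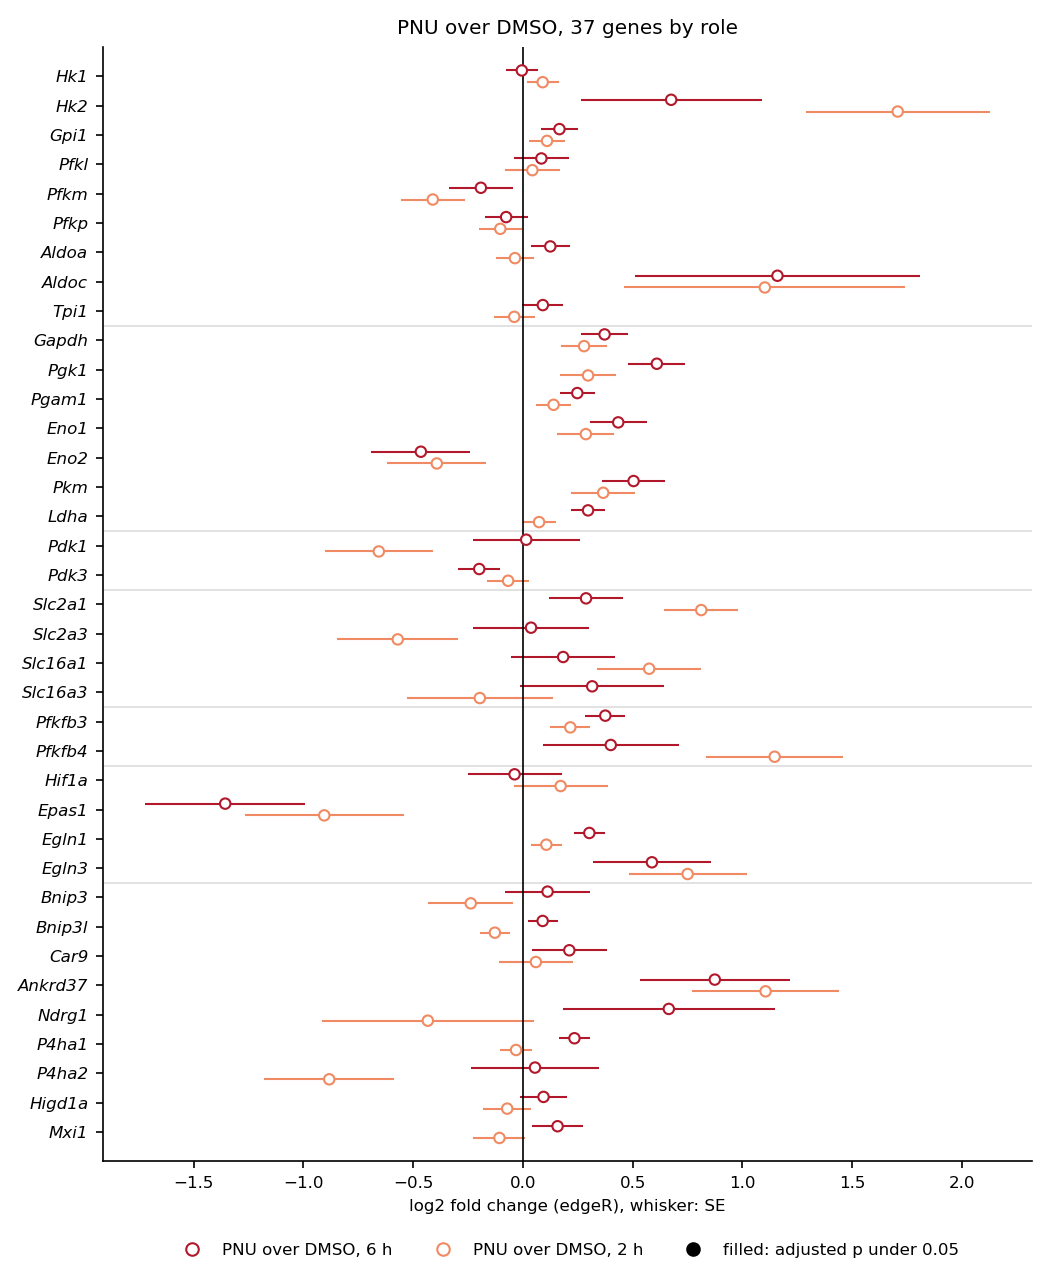
Log2 fold change of PNU over DMSO (edgeR) for the 37 genes by role, at 6 h (red) and 2 h (orange), with whiskers of 1 SE; open circles did not pass an adjusted p of 0.05, and none did. Hk2, Pfkfb4, Slc2a1 and Ankrd37 lie well right of 0 at 2 h, the lower glycolytic enzymes other than Eno2 lie right of 0 at both times, and Epas1 lies left.

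Marker levels also differed between PNU and DMSO at 6 h, and their part in these results was not tested. Csf1r, a receptor of macrophages and microglia, stood at 7.05 to 8.45 CPM with PNU and 1.91 to 2.71 CPM with DMSO (log2 fold change 1.81 ± 0.29, adjusted p = 0.0141); the 4 leukocyte markers summed to 7.46 to 9.29 CPM with PNU and 1.98 to 2.91 CPM with DMSO, while Ptprc, which defines leukocytes, did not exceed 0.235 CPM in any library. The 8 pericyte and smooth muscle markers summed to 4068 to 4182 CPM with PNU and 3341 to 3396 CPM with DMSO, and 1 of them, Cnn1, a smooth muscle calponin, passed (log2 fold change 1.10 ± 0.22, adjusted p = 0.0380). Of 8 fibroblast markers 2 fell, the proteoglycans Dcn (-1.12 ± 0.23, adjusted p = 0.0467) and Lum (-4.54 ± 0.68, adjusted p = 0.0108), while the summed level of the 8 stood at 14952 to 15885 CPM with PNU and 15059 to 15112 CPM with DMSO. Lum was low in both groups, at 0.0351, 0.0777 and 0 CPM with PNU, about the floor of detection, and 0.835, 1.13 and 0.845 CPM with DMSO.

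Whether the PNU effect differed between the times was asked with the effect at 6 h minus that at 2 h, which, tested as a term of the same model, passed for none of the 37 genes, beside 0.035% of all genes. At an unadjusted p under 0.05, 4 of the 37 differed, beside 11.3% of all genes, and 26 of the 37 differences were positive, beside 54%. The 6 genes of smallest p were P4ha1 (0.27 ± 0.10, adjusted p = 0.377), Bnip3l (0.22 ± 0.10, adjusted p = 0.433), P4ha2 (0.94 ± 0.42, adjusted p = 0.437), Slc2a1 (-0.52 ± 0.24, adjusted p = 0.441), Ldha (0.22 ± 0.11, adjusted p = 0.461) and Egln1 (0.20 ± 0.10, adjusted p = 0.493), where the values are log2 differences ± SE. With both libraries that stood apart left out, 8 passed, beside 21.8% of all genes. In that setting the effects on all 8 were nearer to 0 at 6 h. Hk2, Pfkfb4, Slc2a1, Slc16a1 and Ankrd37 were called higher with PNU at 2 h, and Hk2 had a log2 fold change of 0.68 at 6 h, against 2.61 at 2 h. Ndrg1, P4ha2 and Pdk1 were called lower with PNU at 2 h, and P4ha2 had a log2 fold change of -0.24 at 6 h, against -1.17 at 2 h. In the alternatives run, a change of the PNU effect with time was called only when those 2 libraries, or DMSO at 2 h replicate 3 alone (6 genes, beside 16.7% of all), were left out.

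Between 6 h and 2 h with PNU, 11 of the 37 genes changed with edgeR, 3 lower and 8 higher, beside 8.66% of all genes lower and 7.42% higher. The 3 that fell were the same glucose carrier, hexokinase and regulator that were high at 2 h. Both comparisons use the same PNU libraries at 2 h, so they are not independent. Hk2 fell to 70.9, 69.6 and 73.5 CPM at 6 h, against 297, 212 and 225 CPM at 2 h, a log2 fold change of -1.84 ± 0.42 (adjusted p = 0.0198). Pfkfb4 fell by 1.46 on the log2 scale (adjusted p = 0.0159) and Slc2a1 by 0.65 (adjusted p = 0.0271). In all 3, every library at 6 h was below every library at 2 h.

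The 8 genes that rose over time with PNU were Bnip3, Bnip3l, P4ha1, Slc16a3, Pdk1, Pfkfb3, Aldoa and Mxi1. Bnip3 stood at 33.7, 20.5 and 20.2 CPM at 6 h and 13.3, 13.1 and 13.9 CPM at 2 h, and its relative Bnip3l at 87.7, 85.1 and 84.6 CPM at 6 h and 66.0, 67.9 and 65.4 CPM at 2 h. Their log2 fold changes were 0.83 ± 0.19 (adjusted p = 0.0201) and 0.31 ± 0.07 (adjusted p = 0.0164). Both genes separated the times in every library. Slc16a3 stood at 22.2, 9.17 and 9.19 CPM at 6 h and 4.64, 6.14 and 6.03 CPM at 2 h (log2 fold change 1.21 ± 0.33, adjusted p = 0.0345). Pdk1 stood at 35.7, 19.4 and 20.2 CPM at 6 h and 12.5, 12.1 and 12.7 CPM at 2 h (log2 fold change 0.95 ± 0.25, adjusted p = 0.0277). In Slc16a3, Pdk1 and Bnip3, PNU at 6 h replicate 1 was the highest library, and without that library their log2 fold changes were 0.65, 0.61 and 0.54. In that setting Slc16a3, Pdk1, Pfkfb3, Aldoa and Mxi1 did not pass, while Bnip3, Bnip3l and P4ha1 did. P4ha1 rose by 0.32 ± 0.07 (adjusted p = 0.0174), Pfkfb3 by 0.36 ± 0.09 (adjusted p = 0.0249), Aldoa by 0.32 ± 0.09 (adjusted p = 0.0325) and Mxi1, a repressor that opposes Myc, by 0.43 ± 0.12 (adjusted p = 0.0346), all as log2 values. From Gapdh to Ldha none of the 7 enzymes passed over time with PNU, but Ldha, Pgk1 and Pgam1 were higher in every library at 6 h than in any at 2 h (for Ldha, log2 fold change 0.22 ± 0.08, adjusted p = 0.0694). DESeq2 called Ldha higher, and with both libraries that stood apart left out Ldha and Pgk1 were called higher and Eno2 lower.

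These calls rest on the 3 libraries of each group: leaving out any 1 left between 0 and 6 of the 37, with 0 without PNU at 2 h replicate 2 (beside 3.5% of all genes) or replicate 3 (3.21%), which were near copies of each other, and 6 without PNU at 6 h replicate 1 (9.71%). With near copies summed and counted once, none passed, nor did any other gene tested. Groups did not overlap for 17 of the 37 genes higher at 6 h (30.7% of all genes) and 4 lower (21%). At an unadjusted p under 0.05, 18 of the 37 differed, beside 35.1% of all genes, and 26 of the 37 log2 fold changes were positive, beside 52.4%.

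With DMSO, 6 h against 2 h, none of the 37 genes passed, beside 0% of all genes tested, and 3 of the 37 had an unadjusted p under 0.05, beside 4.77%; 18 of the 37 log2 fold changes were positive, beside 46.8%. The groups did not overlap for 5 genes higher at 6 h, namely Aldoa, Slc16a3, Pfkfb3, Bnip3 and Mxi1, beside 6.12% of all genes, and for 0 lower, beside 3.64%. All 5 were among the 8 that rose over time with PNU. Slc16a3 stood at 11.1, 10.9 and 10.9 CPM at 6 h and 8.16, 7.18 and 4.36 CPM at 2 h, and Bnip3 at 22.2, 24.3 and 23.1 CPM at 6 h and 14.5, 20.7 and 13.8 CPM at 2 h. The 6 genes of smallest p had log2 fold changes of 0.48 for Bnip3, -0.71 for Pfkfb4, 0.20 for Pfkfb3, 0.70 for Slc16a3, -0.81 for Hk2 and 0.16 for Aldoa, each with an adjusted p of 0.888. The negative values of Hk2 and Pfkfb4 rested on replicate 3 at 2 h: without that library they were 0.093 for Hk2 and -0.11 for Pfkfb4. The other direct reading of time, PNU at 6 h minus PNU at 2 h against the same in DMSO, is the difference of effects given above, in which none passed.

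**Figure D5:**
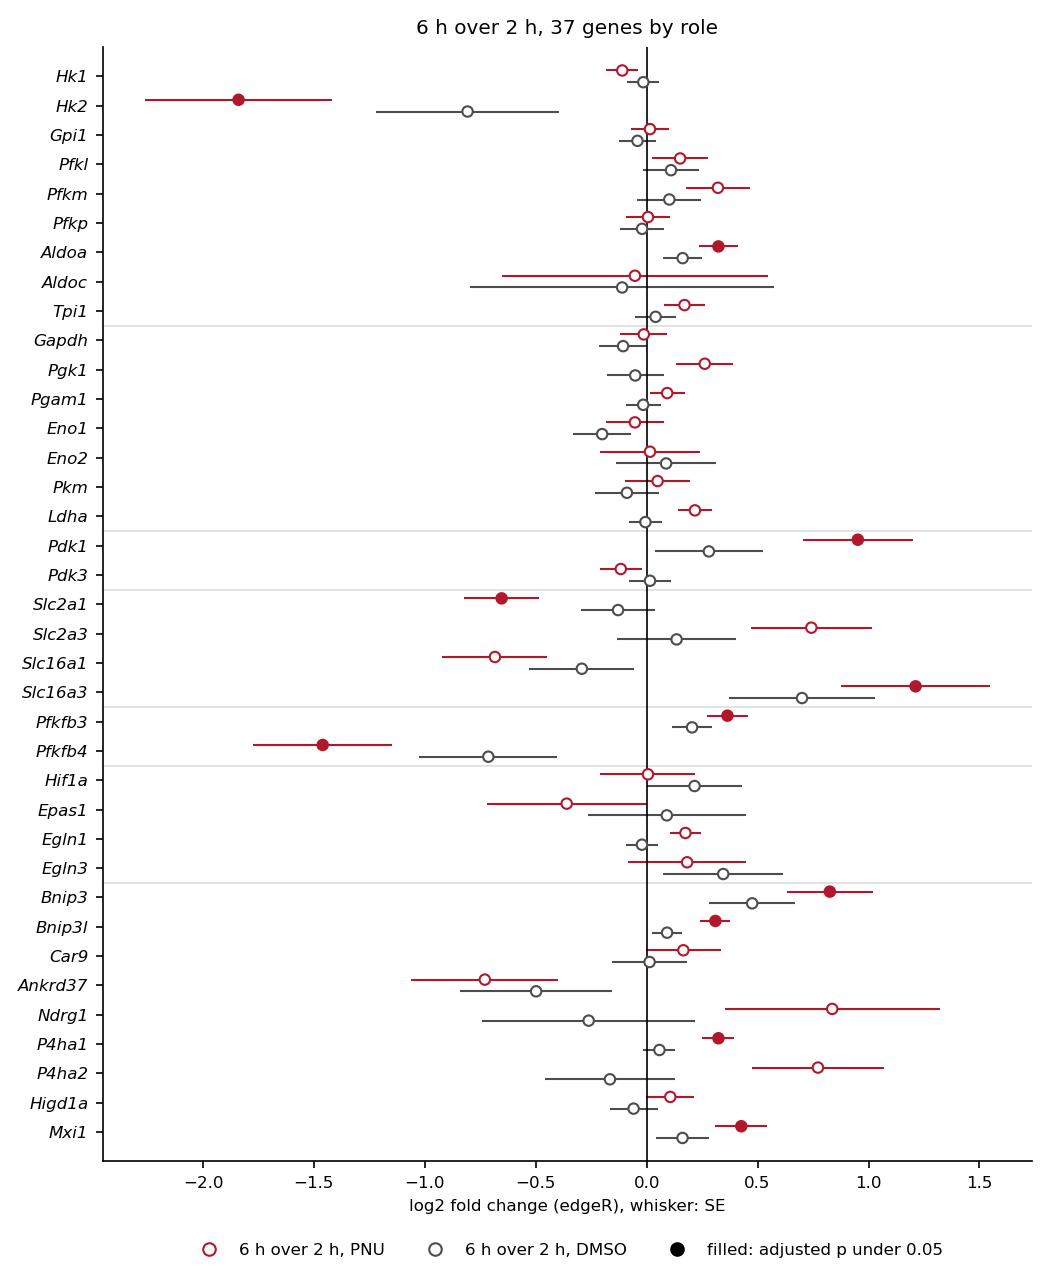
Log2 fold change of 6 h over 2 h (edgeR) for the 37 genes by role, with PNU (red) and with DMSO (grey), whiskers of 1 SE and filled circles for an adjusted p under 0.05. The 11 filled circles are all with PNU: Hk2, Pfkfb4 and Slc2a1 lie left of 0, and Bnip3, Bnip3l, P4ha1, Pfkfb3, Pdk1, Aldoa, Slc16a3 and Mxi1 right of it.

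With all 12 libraries, other genes of the pathways, from lists that do not hold the 37, held few calls between PNU and DMSO. Of 29 further HIF targets tested, 1 rose at 2 h, Ddit4, an inhibitor of mTORC1 signalling, at 90.9, 117 and 117 CPM with PNU and 60.4, 52.7 and 62.3 CPM with DMSO (log2 fold change 0.92 ± 0.15, adjusted p = 0.0366). At 6 h 1 rose, Loxl2, a lysyl oxidase, at 166, 323 and 328 CPM with PNU and 125, 127 and 123 CPM with DMSO (log2 fold change 1.13 ± 0.21, adjusted p = 0.0293). Vegfa, the angiogenic growth factor, stood at 758, 604 and 607 CPM with PNU and 170.3, 173 and 461 CPM with DMSO at 2 h, without overlap, but did not pass (adjusted p = 0.0636). Adm, adrenomedullin, was lower with PNU at 2 h, 24.7, 18.4 and 17.8 CPM against 71.7, 72.1 and 28.5 CPM with DMSO, and did not pass either (adjusted p = 0.0583). Hilpda, a lipid-droplet protein strongly induced by hypoxia in many cells, had log2 fold changes of 0.19 at 2 h and 0.17 at 6 h. The difference of effects and the time comparison with DMSO held no call in any of these lists.

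With time under PNU, 9 of the 29 further HIF targets changed, 4 higher and 5 lower, among them Fam162a (0.57 ± 0.09), Gbe1, the glycogen branching enzyme (0.62 ± 0.11), Narf (0.87 ± 0.18), Ddit4 (-0.71 ± 0.15) and Vegfa (-1.28 ± 0.32), as log2 fold changes; of all genes tested, 7.42% were called higher and 8.66% lower, which is the background for this and the following counts over time with PNU. Of 15 further components of the pathway, 4 fell and none rose: Siah2, a ubiquitin ligase acting on prolyl hydroxylases (-0.78 ± 0.15), Crebbp (-0.32 ± 0.07) and Ep300 (-0.26 ± 0.07), both coactivators of HIFs, and Ube2o (-0.37 ± 0.09). The partner Arnt stood at 46.2 to 73.9 CPM over the 12 libraries, the ubiquitin ligase subunit Vhl at 18.4 to 23.5 CPM, Egln2, another prolyl hydroxylase, at 83.7 to 111 CPM and the inhibitor Hif1an at 48.9 to 61.8 CPM. Hif3a did not exceed 0.0676 CPM, about the floor of detection, and was not tested. Of 25 further glycolytic isoenzymes and partners tested, 3 rose and 2 fell; they include Slc2a10 (0.80 ± 0.15), Ldhb, the subunit that favours lactate use (0.81 ± 0.17), Pgam5 (-0.44 ± 0.12) and Adpgk (-0.45 ± 0.13), and Pdk2 (0.63 ± 0.19). Pdk4, the starvation-induced kinase, stood at 35.8, 49.3 and 48.8 CPM at 6 h and 73.0, 57.3 and 57.5 CPM at 2 h and did not pass (adjusted p = 0.0959).

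With all 12 libraries, 28 genes of pyruvate entry and the TCA cycle showed no call in any of the 5 comparisons. Calls with libraries left out are not given for them. Their medians lay between -0.03 and 0.01, and those of all genes tested between -0.01 and 0.03. Single genes still differed at 2 h, where 11 log2 fold changes were positive and 17 negative. Pdp1 stood at 15.2, 14.1 and 14.8 CPM with PNU and 31.7, 39.7 and 16.9 CPM with DMSO, without overlap. Pcx stood at 53.6, 33.3 and 37.0 CPM with PNU and 111, 90.8 and 42.8 CPM with DMSO, which overlapped. Mpc1, a subunit of the mitochondrial pyruvate carrier, stood at 19.0, 16.4 and 16.5 CPM with PNU and 18.5, 18.8 and 17.7 CPM with DMSO at 6 h. Ppargc1a, a regulator of mitochondrial genes, reached at most 1.49 CPM. Of 9 pentose phosphate genes 1 changed, Rpia, which fell with time under PNU (-0.38 ± 0.11); G6pdx, the entry enzyme, stood at 236, 189 and 195 CPM with PNU and 284, 296 and 228 CPM with DMSO at 2 h and did not pass (adjusted p = 0.0854). Of 15 glycogen genes 3 rose with time under PNU, among them Pygl, liver glycogen phosphorylase (2.20 ± 0.63), and Pgm1 (0.51 ± 0.15), and 1 fell, Pgm2 (-0.66 ± 0.15). Pygl was low with PNU at both times, at 0.527, 0.839 and 0.956 CPM at 6 h and 0.110, 0.239 and 0.135 CPM at 2 h. The 2 h levels were not far above the floor of detection.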

How the data were processed

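Poly(A) libraries of 12 cultures were sequenced as paired reads of 150 bases. Per the labels' protocols, reads were trimmed by fastp 0.23.2, STAR 2.5.2b placed them on GRCm38, and the authors made the deposited gene counts with featureCounts of Subread 1.5.2; DESeq2 is named in the submitters' processing notes with no role. The annotation release, strand setting and treatment of multiply mapped reads are not given in the sources used here. Gene symbols came from a table of gene IDs, which matched 48970 of 49315 IDs.

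The deposited counts were fitted as 4 group means over all 12 libraries with edgeR 4.0.16 (R 4.3.3) after filterByExpr, with TMM scaling and robust quasi-likelihood tests. P-values were adjusted by the Benjamini-Hochberg method over all 17164 genes tested, at a threshold of 0.05. Standard errors are the log2 fold change divided by the square root of F. CPM used each library's total count. Totals of 44332013 to 66518799 put 3 counts at 0.0451 to 0.0677 CPM. The model was tested on simulated data: of genes changed 2-fold it recovered 73% for PNU against DMSO at 2 h and 80% at 6 h, and 82% for 6 h against 2 h with PNU. For the difference of effects it recovered 46%. The simulated replicates were independent, so these shares may not hold for groups with near copies or with a library that stood apart.

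The genes and lists were chosen with earlier results of these data known. Levels were read for all 37 genes. Fold changes are printed for those that passed or, where fewer than 6 did, for the 6 of smallest p. From other lists, up to 4 genes that passed, by p, and a fixed set are given. Replicate numbers did not pair PNU with DMSO: correlations of same-numbered deviations were -0.0684 to 0.0577. Alternatives were other scalings and filters, DESeq2 1.42.0, a replicate block, near copies summed, the libraries of a contrast alone, and libraries left out.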

Additional observations from a re-analysis of the deposited data

How the results depend on the processing

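The libraries decide these results more than the scaling does. With both libraries that stood apart left out, 20 of the 37 genes passed at 2 h, 15 at 6 h, 8 for the difference of effects, 21 for 6 h against 2 h with PNU and 1 (Ndrg1, lower) with DMSO, beside 52.2%, 28.6%, 21.8%, 35.4% and 0.672% of all genes. Leaving out 1 library at a time gave 0 to 16 at 2 h (16 without DMSO at 2 h replicate 3), 0 to 4 at 6 h (4 without PNU at 6 h replicate 1), 0 to 6 for the difference of effects (6 without DMSO at 2 h replicate 3) and 0 to 6 for time with PNU, and 0 for time with DMSO. Time with PNU held 0 calls without PNU at 2 h replicate 2 or 3, 4 without replicate 1, and 6, 4 and 6 without PNU at 6 h replicate 1, 2 and 3; with near copies summed it held 0. DESeq2 called 6 at 2 h, 10 at 6 h and 14 for time with PNU (10 higher and 4 lower), and the 6 h libraries alone gave 13 at 6 h. Upper-quartile scaling and a filter of 1 CPM each gave 1 at 6 h, and no filter gave 1 at 2 h, 1 at 6 h and 7 for time with PNU. Counts printed without a share of all genes are counts only and are not compared with the background. The replicate block gave 2 at 2 h (Hk2 and Slc2a1) and 2 at 6 h (Pgk1 and Epas1), and 12 for time with PNU; since the numbers do not pair PNU with DMSO, no call rests on it. Same-numbered PNU libraries at 2 h and 6 h correlated at 0.170, 0.111 and 0.0993. Hk2 for 6 h against 2 h with DMSO turned to 0.095 without both libraries that stood apart; leaving out 1 library at a time gave -1.13 to 0.093, the highest without DMSO at 2 h replicate 3. An alternative chosen after seeing the data, non-overlap without both of them, held for 23 genes at 2 h, 33 at 6 h and 14 for time with DMSO, beside 62.4%, 66.5% and 26.2% of all genes. ACGTG alone was present in 60.4% of windows. Of the values for single genes, 441 kept direction and side of the threshold, 50 passed newly, 62 lost the call and 2 turned. The cause of these changes was not tested beyond the libraries left out. With a floor of 0.0451 to 0.0677 CPM, depth limits Aldoc and Slc2a3 most.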
